A study of Mus musculus with 6 samples.

Results

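The subunits of the oxidative phosphorylation machinery were examined in cultured mouse hepatic stellate cells exposed to forskolin or to vehicle. The members were the genes of the deposited exon count table whose symbols begin with Nduf, Uqcr or Atp5, with Cox followed by a digit from 4 to 8, or are Sdha, Sdhb, Sdhc or Sdhd. They numbered 92 of the 24940 genes in the table, and 86 of them had enough counts to be tested, among 13357 genes tested in all. By complex, 36 members belong to complex I, 4 to complex II, 8 to complex III, 20 to complex IV and 15 to complex V, while 8 are Ndufaf assembly factors, which are not part of the finished complex. The remaining member is Atp5s, which is not counted here as a subunit. Ndufa4 and Ndufa4l2 carry complex I names and were placed with complex IV, where the Ndufa4 protein is now counted.

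Hepatic stellate cells lie around the liver's sinusoids, store vitamin A and can turn into fibrogenic cells. Those studied were primary cells from female wild-type mice of the strain C57BL/6JBomTac, and treatment began 2 days after isolation. The forskolin group received 5 µM forskolin, an activator of adenylyl cyclase that raises cyclic AMP, and the vehicle group received the same volume of dimethyl sulfoxide. The medium was exchanged after 3 h, and RNA was collected after a further 21 h, so each forskolin value describes cells at 24 h after a short exposure. Polyadenylated RNA was sequenced from 3 libraries per group, lettered A to C. No label states that they came from separate animals or cultures, and p-values therefore measure only the spread between these samples, possibly a technical one.

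Library totals ran from 10890193 to 12954310 counts in the forskolin group and from 13001358 to 15090262.5 in the vehicle group, so every vehicle library was deeper than every forskolin library. All 10 stellate cell markers examined were tested genes, and their summed level was 5167 to 5326 CPM (counts scaled to a common library total) with forskolin and 5378 to 5662 CPM with vehicle. Of these 10, 3 rose and 6 fell (90% called at an edgeR adjusted p under 0.05, against 49.9% of all genes tested). Hgf stood at 401 CPM with forskolin and 198 CPM with vehicle, and Dcn at 616 and 487 CPM. Des stood at 182 and 323 CPM, Pdgfrb at 282 and 381 CPM, and Lum at 94.2 and 150 CPM. Of 12 hepatocyte markers, 10 were under 1 CPM and 3 were at 0 in every library. The summed hepatocyte list still ran from 356 to 439 CPM with forskolin and from 300.2 to 313 CPM with vehicle, carried by Ass1 and Trf, the 2 members of the list that were tested. A list of 8 macrophage markers summed to 37.8 to 39.0 CPM with forskolin and 34.3 to 36.7 CPM with vehicle, and Marco was at 0. Its tested genes moved in both directions. Lyz2 stood at 4.22 CPM with forskolin and 10.8 CPM with vehicle. Cd68 stood at 15.8 and 11.2 CPM, and Csf1r at 18.3 and 13.2 CPM. The sum of 8 sinusoidal endothelial markers was 94.7 to 97.1 CPM with forskolin and 208 to 219 CPM with vehicle, that of 5 smooth muscle markers 705 to 776 and 849 to 855 CPM, and that of 5 cholangiocyte markers 392 to 427 and 137 to 151 CPM. Single genes carried the endothelial and cholangiocyte sums: among the endothelial markers Flt4 stood at 79.7 CPM with forskolin and 195 CPM with vehicle, and among the cholangiocyte markers Spp1 stood at 372 and 72.5 CPM while Krt19 stood at 35.1 and 71.3 CPM. Of the other endothelial markers that averaged over 1 CPM, Kdr and Lyve1 also had lower means with forskolin, and Stab1 and Stab2 had higher ones. All 5 smooth muscle markers had lower means with forskolin. Among them, Cnn1 stood at 15.4 CPM with forskolin and 32.1 CPM with vehicle, and Actg2 at 14.9 and 29.7 CPM. Under 1 CPM on average were 5 of the 8 macrophage markers, 3 of the 8 endothelial ones (Pecam1, Cdh5 and Clec4g) and 2 of the 5 cholangiocyte ones (Krt7 and Epcam). The part of these marker shifts in the results below was not tested, and in bulk RNA fewer cells of a type and less RNA per cell cannot be told apart.

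Oxidative phosphorylation takes place in the inner mitochondrial membrane. Complexes I and II pass electrons from NADH and succinate to coenzyme Q, complex III hands them to cytochrome c, and complex IV transfers them to oxygen, while complexes I, III and IV pump protons that drive ATP synthesis by complex V. Most subunits are encoded in the nucleus, and a smaller set is encoded by mitochondrial DNA. Transcripts of the mitochondrial genome are not analysed here. In many tissues nuclear subunit genes are driven by the transcription factors NRF1, GABPA and the estrogen-related receptors with the coactivator PGC-1α, and PGC-1α is itself a known target of cyclic AMP signalling through CREB.

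The machinery as a whole differed little between the groups. Summed over the 86 tested members, transcripts stood at 6343 ± 176 CPM (SD, n = 3) in the vehicle group and 6606 ± 146 CPM (SD, n = 3) in the forskolin group, a ratio of 1.04. Of the 86 members, 16 rose and 3 fell at an adjusted p under 0.05 (edgeR's quasi-likelihood test, Benjamini-Hochberg adjustment over all genes tested), and 67 were not called. That is 22.1% of the members called, against 49.9% of all genes tested, where 24.8% rose and 25.1% fell. The median log2 fold change of the members, forskolin over vehicle, was 0.06, and that of all genes tested was 0.01. The median size of the change regardless of sign was 0.08 among the members and 0.22 among all genes, and 47 of the 86 members lay within 0.1 of no change.

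In the fit with group alone, the members were measured closely enough to bound most of these differences. The intervals of that fit take no account of library depth, which separated the groups. An interval falls within a given range when the change is small as well as closely measured. The shares below therefore do not compare precision alone. For 68 of the 86 members (79.1%) the 95% interval of the change lay within 1.25-fold in either direction, against 35.7% of all genes tested, and for 80 members (93.0%) it lay within 1.5-fold, against 63.8% of all genes. The groups of libraries did not overlap for 35 members (40.7%), against 57.2% of all genes, and the 19 called members were among those 35. Of the 19 called changes, 14 were smaller than 1.25-fold and 1, that of Ndufa6, exceeded 1.5-fold. In simulated data of the same depth and spread, 50 genes were changed at each fold size. There the test recovered 42% of changes of 1.25-fold and 2% of changes of 1.1-fold. Far more genes were called in the real data, which makes the adjusted threshold less strict. These rates therefore do not give the share of members missed.

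**Figure D1:**
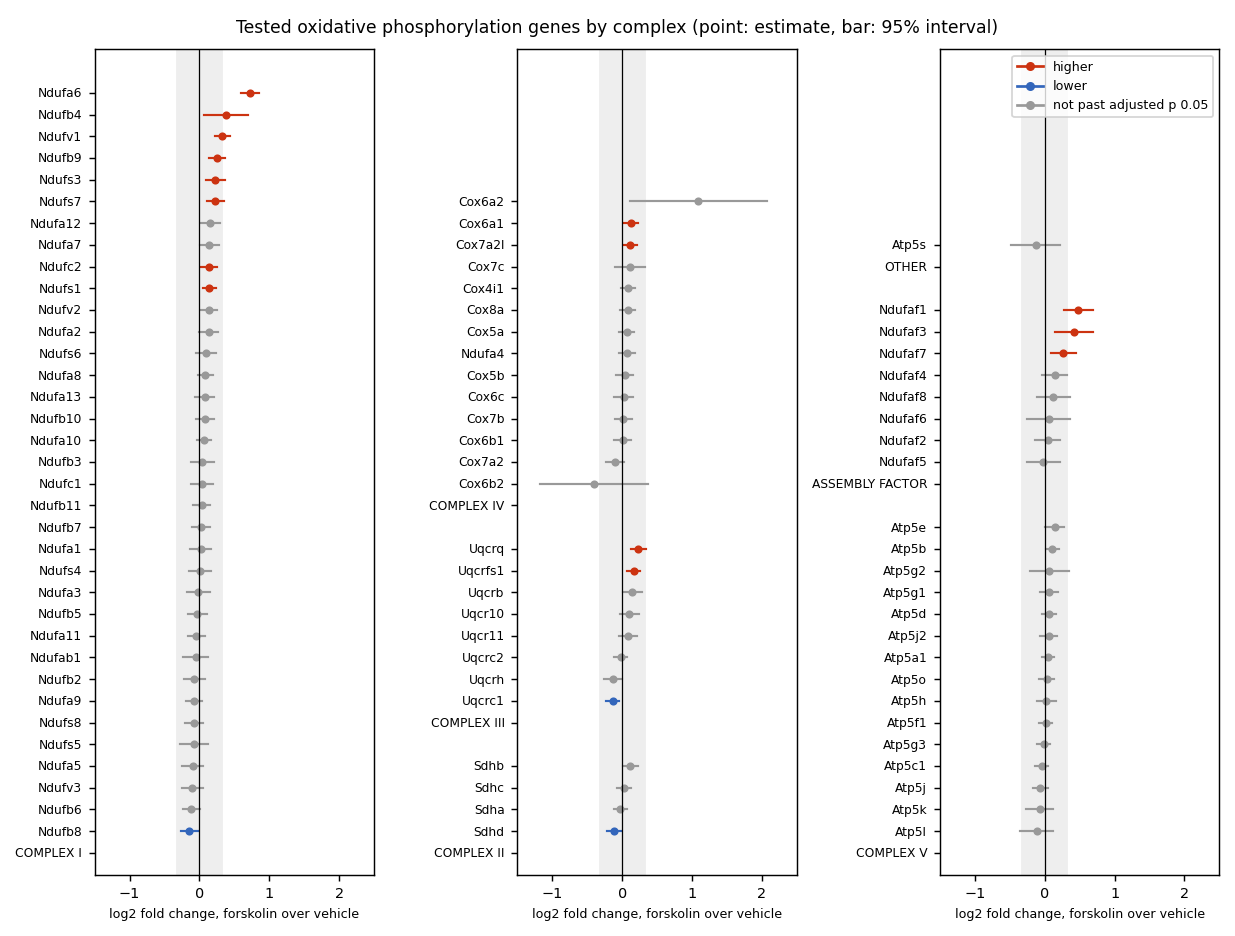
Log2 fold change, forskolin over vehicle, of the tested members reported here, by complex, with its 95% interval as a horizontal bar called members in colour and the range within 1.25-fold shaded. Most points lie within 0.1 of 0, Ndufa6 stands at 0.72, and the widest interval belongs to Cox6a2, which had 54.5 counts over the 6 libraries.

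**Figure D2:**
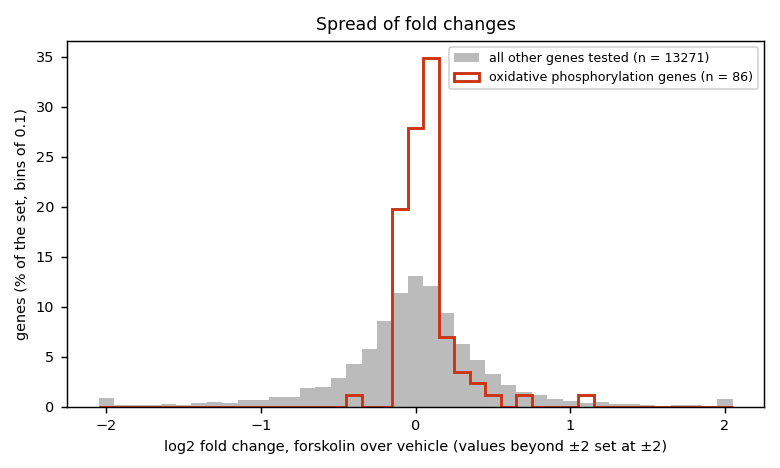
Share of genes (percent of each set, y axis) by log2 fold change in bins of 0.1 (x axis), for the members (outline) and all other genes tested (grey), with values beyond 2 in either direction set at 2. The median size of the change regardless of sign was 0.08 for the members and 0.22 for the other genes.

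Complex I, the NADH dehydrogenase, held 10 of the 19 calls and was also the complex with the most members. Its 36 subunits summed to 1973 ± 47.3 CPM in the vehicle group and 2103 ± 48.2 CPM in the forskolin group (SD, n = 3 each), a ratio of 1.07. Of the 36, 9 rose and 1 fell (27.8% called, against 49.9% of all genes tested), and the median log2 fold change was 0.06. The core subunits carry the flavin, the iron-sulfur clusters and the quinone site, and the accessory subunits surround them. Of the 29 accessory subunits 4 rose and 1 fell (17.2% called), with a median log2 fold change of 0.03. The division into core and accessory subunits was chosen after their values were seen. With the library total as a covariate, Ndufa6 and Ndufv1 were the 2 complex I subunits that rose.

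Ndufa6, an accessory subunit of the matrix arm that binds the mitochondrial acyl carrier protein, had the largest called change of any member. The gene lies at chr15:82350139-82354291 on the minus strand (build mm10), with an exon length of 555 bases. Its level was 41.3, 36.2 and 40.4 CPM in vehicle libraries A, B and C and 64.5, 63.8 and 66.0 CPM in forskolin libraries A, B and C. Every forskolin library was above every vehicle library, and the gap between the groups was wider than the range within either. The log2 fold change was 0.72 (SE 0.0641, edgeR adjusted p = 3.18e-08), a 1.65-fold rise, and the 95% interval on the log2 scale was 0.59 to 0.86. It was called under every alternative processing in which it was tested.

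Ndufv1, the core flavoprotein that accepts electrons from NADH, had the lowest adjusted p after Ndufa6. Its gene lies at chr19:4007499-4012755 on the minus strand. It stood at 105, 101 and 95.6 CPM in the vehicle libraries and at 127, 122 and 130 CPM in the forskolin libraries, with no overlap between the groups. The log2 fold change was 0.33 (SE 0.0491, edgeR adjusted p = 2.16e-05), a 1.26-fold rise. Ndufs7, which carries an iron-sulfur cluster next to the quinone site, rose by 0.23 on the log2 scale (adjusted p = 0.00257). Ndufs3 and Ndufs1, the latter holding several iron-sulfur clusters, rose by 0.23 and 0.14 (adjusted p = 0.00679 and 0.0144). Ndufv2, the partner of Ndufv1, had a log2 fold change of 0.14 with an adjusted p of 0.0541, and Ndufs8 had -0.08 with an adjusted p of 0.279, so neither was called.

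The accessory subunits that rose beside Ndufa6 were Ndufb9, Ndufb4 and Ndufc2, all of the membrane arm, and the 1 that fell was Ndufb8, of the same arm. Ndufb9 had a log2 fold change of 0.25 (edgeR adjusted p = 0.000858), Ndufb4 of 0.38 (adjusted p = 0.0441) and Ndufc2 of 0.14 (adjusted p = 0.0438). Ndufb8 stood at 72.2, 68.9 and 75.6 CPM with vehicle and 64.1, 62.9 and 68.7 CPM with forskolin, a log2 fold change of -0.15 (adjusted p = 0.0424). The highest forskolin library was thus just under the lowest vehicle library. With libraries left out in turn, Ndufb4 was no longer called without any of them except forskolin B (adjusted p up to 0.132), Ndufc2 without any except forskolin A (up to 0.152) and Ndufb8 without forskolin A or B or vehicle A or C (up to 0.198), while Ndufb9 stayed at or below 0.00812. Near-identical copies elsewhere in the genome, or other genes annotated at the same place, can share reads with some of these genes. The share of 50-base stretches found in no other annotated transcript was 60.3% for Ndufs3, 63.0% for Ndufb4, 76.6% for Ndufb9 and 86.5% for Ndufb8, and 30 of the 86 tested members fell under 90%, so their values are less certain. For Ndufb9 and Ndufb8 the only genes that shared stretches were Gm49356 and Gm20538, whose exons overlap theirs on the same strand.

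Complex II, the succinate dehydrogenase shared with the tricarboxylic acid cycle, had the sum that differed least between the groups. Its 4 subunits summed to 587 CPM in the vehicle group and 583 CPM in the forskolin group, a ratio of 0.993. Sdha, the flavoprotein, stood at 289, 277 and 294 CPM with vehicle and 283, 275 and 288 CPM with forskolin, and the groups overlapped (log2 fold change -0.02, edgeR adjusted p = 0.658, 95% interval -0.11 to 0.06). Sdhb, the iron-sulfur subunit, had a log2 fold change of 0.12 (adjusted p = 0.0654), and the membrane anchor Sdhc of 0.03 (adjusted p = 0.649). Sdhd, the other membrane anchor, stood at 107, 106 and 106 CPM with vehicle and 96.4, 95.7 and 102 CPM with forskolin. It fell by 0.12 on the log2 scale (adjusted p = 0.0498), close to the threshold, and it was called without forskolin C but not without any other library (adjusted p up to 0.153).

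In complex III, the cytochrome bc1 complex, 2 of 8 subunits rose and 1 fell (37.5% called, against 49.9% of all genes tested). The sum was 716 CPM with vehicle and 726 CPM with forskolin. Uqcrq, a small subunit at chr11:53427922-53430831, stood at 73.0, 69.0 and 70.1 CPM with vehicle and at 80.8, 83.5 and 84.1 CPM with forskolin. The groups did not overlap, and the log2 fold change was 0.23 (SE 0.0511, edgeR adjusted p = 0.00114). Uqcrfs1, the Rieske iron-sulfur protein, at chr13:30540312-30545316, stood at 114, 115 and 115 CPM with vehicle and 127, 125 and 133 CPM with forskolin. The vehicle libraries were nearly equal and all lay under the forskolin libraries (log2 fold change 0.17, adjusted p = 0.00515). Uqcrc1, one of the core proteins, went the other way, with 201, 196 and 208 CPM in the vehicle libraries and 182, 177 and 193 CPM in the forskolin libraries. Its log2 fold change was -0.13 (adjusted p = 0.0182), its groups were close without overlapping, and it was not called without forskolin B, vehicle A or vehicle C (adjusted p up to 0.107).

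**Figure D3:**
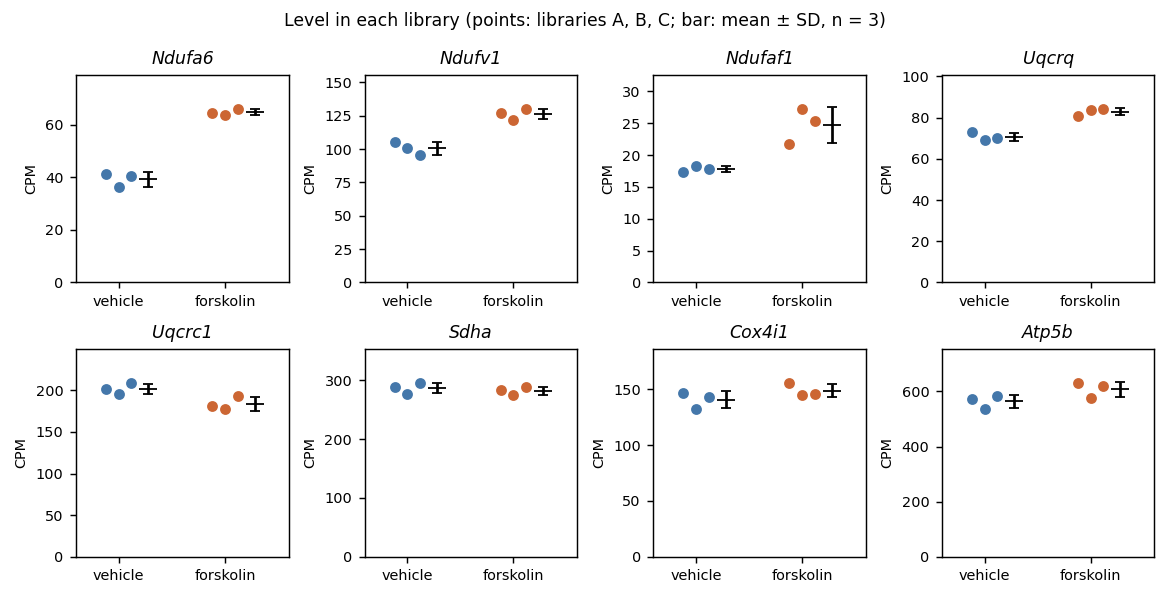
CPM of named members in each of the 6 libraries, as points, with the mean ± SD of each group (n = 3) beside them. Ndufa6, Ndufv1, Ndufaf1 and Uqcrq lie higher in every forskolin library than in any vehicle library, and the libraries overlap for Sdha.

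Complex IV, cytochrome c oxidase, contains several subunits that exist in a widely expressed form and in forms typical of muscle, lung or testis. The level here came from the widely expressed forms. Cox4i1 stood at 147, 132 and 143 CPM with vehicle and 155, 145 and 146 CPM with forskolin, and the groups overlapped (log2 fold change 0.08, edgeR adjusted p = 0.178). Its hypoxia-linked counterpart Cox4i2 had 26.5 counts over all 6 libraries, 0.232% of the counts of the pair (exact 95% interval 0.152 to 0.340, counting error only). Ndufa4l2 took 0.419% of the counts of its pair with Ndufa4, and the muscle form Cox7a1 took 0.503% of those of its pair with Cox7a2. Cox8b had 3 counts, Cox8c had 1.5 and the testis form Cox7b2 had none, for which the exact 95% interval of the share in its pair with Cox7b reached 0.0874%. These 6 genes are the members that were not tested.

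Of the 14 tested complex IV members, 2 rose and none fell (14.3% called, against 49.9% of all genes tested). Their sum was 914 ± 32.5 CPM with vehicle and 954 ± 23.9 CPM with forskolin (SD, n = 3 each). The muscle form Cox6a2 stood at 0.443, 0.737 and 0.157 CPM with vehicle and 1.28, 0.907 and 0.822 CPM with forskolin. The groups did not overlap, but the gene had between 1.5 and 13.5 counts per library and an adjusted p of 0.0591 (edgeR, log2 fold change 1.09). Without vehicle B the log2 fold change was 1.67 and was called (adjusted p = 0.028), and without vehicle C it was 0.73 (adjusted p = 0.234). The 2 that rose were Cox6a1, the widely expressed partner of Cox6a2, with a log2 fold change of 0.12 (adjusted p = 0.0458), and Cox7a2l, a factor that joins complexes III and IV into supercomplexes and of which C57BL/6-derived mice are known to carry a shortened allele, also with 0.12 (adjusted p = 0.0438). Both were called without forskolin A and not without any other library, where the adjusted p reached 0.214 for Cox6a1 and 0.151 for Cox7a2l. Their unique shares were 87.7% and 82.3%. The other tested genes with alternative forms were not called: Ndufa4 had a log2 fold change of 0.07 (adjusted p = 0.34), Cox6b1 of 0.01 (0.887), its testis-enriched counterpart Cox6b2 of -0.40 (0.384), Cox7a2 of -0.10 (0.17) and Cox8a of 0.08 (0.214).

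Shares within families of alternative forms were compared after division by exon length. Cox7a2 made up 45.7 ± 1.80% of the transcripts of its family with vehicle and 41.9 ± 0.988% with forskolin (SD, n = 3 each), with Cox7a2l making up nearly all of the rest. The groups did not overlap, and the exact two-sided permutation p was 0.1, the smallest that 3 against 3 libraries allow, or 0.267 after adjustment over the 4 families tested. For the c-ring of complex V, whose subunit c is encoded by Atp5g1, Atp5g2 and Atp5g3, the Atp5g1 share was 24.4% with vehicle and 25.3% with forskolin (exact p = 0.2, adjusted 0.267). Cox6a2 stood at 0.331% and 0.691% of its pair (exact p = 0.2, adjusted 0.267), and Cox6b2 at 1.38% and 1.00% (exact p = 0.4, adjusted 0.4). No share passed, and none could have at this number of libraries.

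Complex V, the ATP synthase, had no called member among 15, although its transcripts summed to 2007 ± 66.6 CPM with vehicle and 2073 ± 57.0 CPM with forskolin (SD, n = 3 each). The median log2 fold change was 0.03, and the values ran from -0.12 to 0.14. For 13 of the 15 the 95% interval lay within 1.25-fold, and for all 15 within 1.5-fold. Atp5b, the catalytic beta subunit, had the highest level per length of any member, 302 CPM per kilobase with vehicle. It stood at 571, 538 and 582 CPM with vehicle and 629, 576 and 619 CPM with forskolin, and the groups overlapped (log2 fold change 0.11, edgeR adjusted p = 0.0538). Whether Atp5b was called depended on the setting: it rose without forskolin B (adjusted p = 0.0209), without vehicle C (0.0483), with the replicate block (0.00882), with library size alone (0.00437), with no filter (0.0264), in thinned counts (0.0499) and with the lowess offset on counts per base (0.0167), and with the library total as a covariate its log2 fold change was -0.00468. Across the alternatives, up to 2 members of complex V were called. Atp5a1, the alpha subunit, had a log2 fold change of 0.05 (adjusted p = 0.372). Atp5g1, Atp5g2 and Atp5g3 had log2 fold changes of 0.06, 0.07 and -0.01.

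Levels per length in the vehicle group also showed how even each complex was. The 4 subunits of complex II spanned 78.7 to 101 CPM per kilobase, a 1.28-fold range, and those of complex III spanned 46.5 for Uqcrq to 123 for Uqcrc1, a 2.65-fold range. Complex I ran from 13.3 for Ndufb4 to 107 for Ndufb8, an 8.07-fold range whose lower end is a gene with 63.0% unique stretches. In complex V the lowest was Atp5g2, at 14.3 CPM per kilobase, where 12.6% of 50-base stretches were unique. Complex IV had the widest range, with its muscle form Cox6a2 at 0.682 CPM per kilobase beside 203 for Cox6a1.

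The Ndufaf assembly factors, which help build complex I and leave it afterwards, were low. Of 8, 3 rose and none fell (37.5% called, against 49.9% of all genes), with a median log2 fold change of 0.13, and their sum was 138 CPM in vehicle-treated cells and 158 CPM after forskolin, a ratio of 1.14. Ndufaf1, a member of the complex that assembles the membrane arm, lies at chr2:119655446-119662834. It stood at 17.3, 18.2 and 17.8 CPM with vehicle and at 21.7, 27.2 and 25.3 CPM with forskolin, with forskolin library A the lowest of its group and still above every vehicle library. The log2 fold change was 0.48 (SE 0.0972, edgeR adjusted p = 0.000465), a 1.40-fold rise. Ndufaf3 stood at 8.56, 9.31 and 9.13 CPM with vehicle and 13.3, 10.6 and 12.3 CPM with forskolin (log2 fold change 0.42, adjusted p = 0.0116). Ndufaf7, a mitochondrial methyltransferase needed for complex I assembly, rose from 21.8 to 26.3 CPM (log2 fold change 0.27, adjusted p = 0.0163), and was not called without forskolin A, vehicle B or vehicle C (adjusted p up to 0.0619). With the library total as a covariate Ndufaf1 stayed called, and Ndufaf3 and Ndufaf7 did not (adjusted p = 0.32 and 0.339).

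The members are short and densely covered genes, so their values were set against sequencing depth, which also separated the groups. Their median exon length was 746.5 bases, against 2917 for all genes tested, and they had a median of 0.993 counts per base of exon per library, against 0.157. More than 1 count per base was reached by 43 members (50%) and by 8.47% of all genes. Within groups, the log2 level of the median member moved by -0.15 per unit of log2 library total, while that of the median other gene moved by 0.00276, so members read slightly higher in shallower libraries. Other dense genes shared this slope. It was -0.22 for members and -0.17 for other genes at 1 to 2 counts per base, and -0.31 and -0.37 over 2. Between 0.3 and 1 count per base it was -0.08 and 0.01. The groups differed in mean depth by 0.22 on the log2 scale, and the product of slope and gap was 0.03, against the member median of 0.06.

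**Figure D4:**
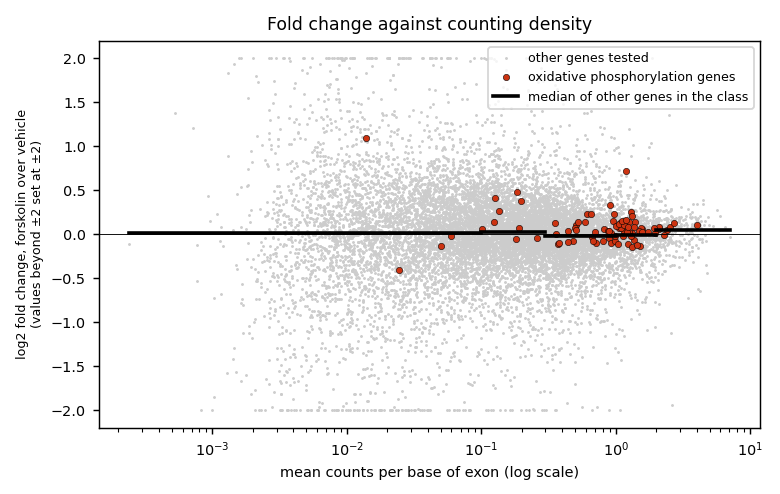
Log2 fold change of each tested gene against its counts per base of exon (log axis), members in colour and all other genes in grey, with values clipped at 2 in either direction and a line for the median of the other genes in each density class. The members lie at the dense end, with a median of 0.993 counts per base.

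Other genes of the same density were called more often than the members. Between 1 and 2 counts per base, 25.0% of 36 members were called, against 55.1% of 791 other genes, with median standard errors of 0.0573 and 0.0446 on the log2 scale. Between 0.3 and 1 count per base the shares were 16.7% of 30 members and 58.3% of 3241 other genes, with median standard errors of 0.0645 and 0.0517. The members' changes were also smaller, with a median size regardless of sign of 0.09 against 0.13 in the first class and 0.08 against 0.17 in the other.

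With the log2 library total as a covariate, 5 of the 86 members were called, against 32.2% of all genes tested (15% higher and 17.2% lower), and the member median was -0.00347. Ndufa6 (log2 fold change 0.64, edgeR adjusted p = 0.000187), Ndufv1 (0.33, adjusted p = 0.00513), Ndufaf1 (0.67, adjusted p = 0.00195) and Uqcrq (0.24, adjusted p = 0.0328) rose, and Uqcrc1 fell (-0.19, adjusted p = 0.0357). That fit has less precision, since depth and treatment moved together, so the loss of the other 14 calls does not show that those genes did not differ. The forskolin and vehicle libraries closest in depth, forskolin B and vehicle C, differed by 0.362% in total. Between these, the median log2 ratio was 0.02 for members and 0.01 for other genes, with 48 members above 0 and 38 below. Of the 19 calls, 4 were kept in all of the alternatives in which the gene was tested, namely Ndufa6, Ndufv1, Ndufaf1 and Uqcrq, and none turned its sign.

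**Figure D5:**
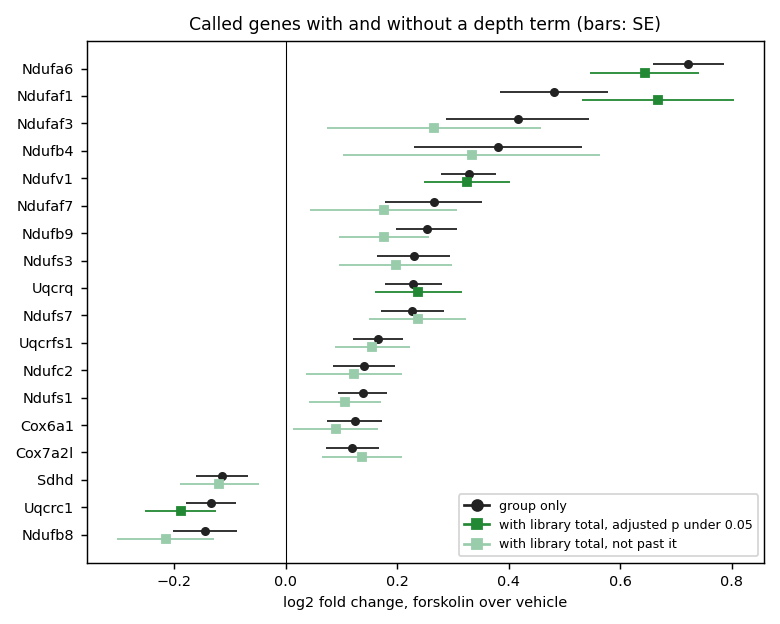
Log2 fold change, forskolin over vehicle (x axis), of the called members reported here from the fit with group alone (circles) and with the library total as a covariate (squares, dark where the adjusted p is under 0.05), with bars for the SE. Ndufa6, Ndufv1, Ndufaf1, Uqcrq and Uqcrc1 are called in both fits, and every square lies on the same side of 0 as its circle.

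The sequences upstream of the genes were searched for the motifs of factors known to act on nuclear subunit genes or on cyclic AMP responses. The 250 bases before the annotated start were taken from RefSeq promoters of build GRCm38.p6 for 74 of the 92 members. The upstream sequences of 4 genes that rose are shown, 5′ to 3′ on the strand of the gene. Ndufa6 had the largest called change, and Ndufv1 is a core subunit that rose in every alternative. Among the 12 members that rose and had a promoter, only Uqcrfs1 had a full cyclic AMP response element and only Cox6a1 a full NRF1 motif. Capitals mark motif matches on either strand. The windows are chr15:82354292-82354541 for Ndufa6, chr19:4012756-4013005 for Ndufv1, chr13:30545317-30545566 for Uqcrfs1 and chr5:115348959-115349208 for Cox6a1, all on the minus strand.
Ndufa6: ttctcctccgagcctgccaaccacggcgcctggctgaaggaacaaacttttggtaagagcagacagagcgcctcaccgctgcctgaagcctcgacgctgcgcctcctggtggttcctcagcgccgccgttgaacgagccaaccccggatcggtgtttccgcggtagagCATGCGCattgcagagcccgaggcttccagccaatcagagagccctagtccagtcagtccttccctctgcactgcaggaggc
Ndufv1: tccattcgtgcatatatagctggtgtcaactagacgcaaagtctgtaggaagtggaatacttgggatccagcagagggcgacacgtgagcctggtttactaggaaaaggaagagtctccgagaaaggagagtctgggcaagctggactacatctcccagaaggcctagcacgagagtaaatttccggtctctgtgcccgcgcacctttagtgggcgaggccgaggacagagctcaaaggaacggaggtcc
Uqcrfs1: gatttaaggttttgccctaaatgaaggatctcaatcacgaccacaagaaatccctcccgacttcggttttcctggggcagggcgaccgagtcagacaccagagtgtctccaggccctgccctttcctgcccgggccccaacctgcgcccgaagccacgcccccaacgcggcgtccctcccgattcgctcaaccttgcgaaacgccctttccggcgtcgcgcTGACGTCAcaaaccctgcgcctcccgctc
Cox6a1: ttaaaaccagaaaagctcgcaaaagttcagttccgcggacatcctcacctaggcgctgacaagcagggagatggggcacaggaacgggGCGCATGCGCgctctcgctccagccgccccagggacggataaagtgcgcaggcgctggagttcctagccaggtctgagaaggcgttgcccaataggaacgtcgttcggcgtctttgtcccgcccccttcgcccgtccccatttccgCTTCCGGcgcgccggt

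The full cyclic AMP response element, TGACGTCA, was found in the windows of 4 members, Ndufa10, Ndufa11, Ndufb2 and Uqcrfs1. That is 5.41% of the 74, against 2.10% of 17807 promoters matched to the table and 2.81% of the 10203 that belong to tested genes, and of those 4 only Uqcrfs1 rose, with its match at position -29 from the start. The shorter element TGACG, which also lies inside the full one, was found in 29.7% of members, 21.0% of all promoters and 27.8% of those of tested genes. It was found in 2 of the 12 members that rose and had a promoter, and in 19 of the 56 not called. The NRF1 motif GCGCATGCGC was present in 5 members (Atp5g2, Atp5k, Cox6a1, Ndufa11 and Ndufaf4), 6.76% against 1.09% of all promoters and 1.68% of those of tested genes. These were 1 of the 12 that rose and 4 of the 56 not called. Its shorter form GCGCATG, which overlaps it, was present in 14.9% against 4.20%, and 6.04% of those of tested genes, and Ndufa6 had this form at position -82. The ETS motif CCGGAAG, which the factor GABPA can bind, was present in 17.6% against 9.36%, and 14.4% of those of tested genes, and Cox6a1 had one at position -16. The YY1 motif AAGATGGC was found in none of the members' windows and in 1.61% of all promoters, and TCAAGGTCA, a motif of the estrogen-related receptors, in 1 member and 0.292% of all promoters. Both strands were searched, but bases after the start were not, so an absent match holds for the upstream window only. A match describes letters and not binding, and Ndufv1 had none of these letters in its window.

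The genes around the machinery were taken from lists outside the rule. Of 41 assembly factors with other names, 13 rose and 4 fell, with a median log2 fold change of 0.06. Uqcc3, which assembles complex III, measured 13.4 ± 0.0884 CPM in the vehicle group and 21.5 ± 2.01 CPM in the forskolin group (SD, n = 3 each; log2 fold change 0.69, edgeR adjusted p = 1.95e-05). Atpaf1, a chaperone of the complex V beta subunit, stood at 11.9 ± 1.15 and 18.7 ± 2.80 CPM (log2 fold change 0.66, adjusted p = 0.000229), and Nubpl, which delivers iron-sulfur clusters to complex I, had a log2 fold change of 0.60. The share called was 41.5%, against 49.9% of all genes tested. With the library total as a covariate 7 of these assembly factors rose and 3 fell, and Nubpl was no longer called (adjusted p = 0.156).

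Coenzyme Q, the carrier between complexes I or II and complex III, had the largest median of the lists around the machinery, 0.20. Of its 12 tested genes 6 rose and none fell, a share of 50% called, near the 49.9% of all genes. The highest was Coq10a, a coenzyme Q-binding protein, with 6.40 ± 1.11 CPM in the vehicle group and 10.8 ± 0.775 CPM in the forskolin group (SD, n = 3 each; log2 fold change 0.75, edgeR adjusted p = 0.000381). It was followed by the biosynthetic enzymes Coq3 and Coq2, at log2 fold changes of 0.40 and 0.36. Of 11 functional partners outside the rule, such as cytochrome c and the voltage-dependent anion channels, 3 rose and none fell (27.3% called): Vdac3 (log2 fold change 0.24), the complex III subunit Cyc1 (0.21) and the complex V inhibitor Atpif1 (0.19). With the covariate none of the partners was called, while 5 coenzyme Q genes rose. Of 16 genes of the tricarboxylic acid cycle and pyruvate dehydrogenase, which supply NADH and succinate, 5 rose and 2 fell (43.8% called), with a median of 0.04, and 3 rose and 2 fell with the covariate. The largest called changes were those of malate dehydrogenase Mdh2 (log2 fold change 0.26), the succinyl-CoA ligase subunit Suclg2 (0.24) and Dld (0.22), the lipoamide dehydrogenase of pyruvate dehydrogenase.

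Among 16 tested regulators of mitochondrial gene expression, 5 rose and 3 fell, a share of 50% called, against 49.9% of all genes. Ppargc1a, which encodes PGC-1α, stood at 0.812, 0.670 and 0.787 CPM with vehicle and at 3.46, 2.27 and 1.23 CPM with forskolin, a log2 fold change of 1.59 (edgeR adjusted p = 0.0018). The groups did not overlap, the forskolin libraries differed widely among themselves, and the level was low in both groups. With the library total as a covariate the log2 fold change was 1.03 and the adjusted p 0.185. Tfb1m, a methyltransferase of mitochondrial ribosomal RNA, and Gabpb2, a partner of GABPA, had log2 fold changes of 0.62 and 0.50. The 3 regulators that fell were Esrra, which encodes an estrogen-related receptor, Gabpa and Yy1. With the covariate 2 of the regulators rose and 3 fell, the latter again Esrra, Gabpa and Yy1, and Tfb1m was not called (adjusted p = 0.479).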

How the data were processed

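RNA of 3 forskolin and 3 vehicle libraries was compared. The authors deposited expected counts per gene over exons, in steps of 0.5 (31.8% of values were not whole), per the file headers. The submitters' processing notes name STAR, HOMER and the genome build mm10, with no versions, and whether strand was used in counting is not given in the sources used here. Counts were rounded to whole numbers. Genes were kept by edgeR's filter (minimum count 10, minimum total 15), leaving 13357 genes with 99.9% of the counts. Differences were fitted over all of them with edgeR 4.0.16 (TMM, quasi-likelihood test) in R 4.3.3 with Benjamini-Hochberg adjustment and calls at an adjusted p under 0.05. The biological coefficient of variation was 4.44%. CPM were computed on TMM-scaled totals, and levels per kilobase used the exon length of the table. In simulated data with known changes, 95.1% of the 95% intervals held the true value. Those data were drawn with the spread fitted by the same model and without a depth slope. The figure therefore does not show how well the intervals hold in the real data.

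The members and lists were chosen with earlier results of these data known. By rule, the text names the 3 largest called changes of each complex and list, the member of each complex with the highest level per kilobase, the tested alternative forms and the Sdh subunits. The ribosomal lists were an exception, where only Mrpl24 and Mrps36 were named with values. The remaining called members, further core subunits of complex I, Atp5a1 and the regulators that fell were named after their values were seen. So were the cell type markers given with values. The count of unique 50-base stretches used GENCODE transcripts of release M21. Alternatives were DESeq2 1.42.0, library size alone, no filter, leaving out each library, a replicate block, settings on depth and, chosen after seeing the data, members of at least 90% unique sequence only. Counts and sums cover all members, and 1 member is not reported here by itself.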

Additional observations from a re-analysis of the deposited data

How the results depend on the processing

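Every vehicle library was deeper than every forskolin library, and this limits the small differences most. With the library total as a covariate, 4 members rose and 1 fell, with a median log2 fold change of -0.00347. With library size alone, 25 rose and 0 fell, with a median of 0.0994, while the median of all genes moved from 0.01 to 0.05, so 100% of member calls were then higher, against 84.2% with TMM. With the shallowest forskolin and deepest vehicle libraries left out, 9 rose and 1 fell. Without genes of over 1 count per base, 9 of 43 rose and 0 fell, and with DESeq2 12 rose and 1 fell. Other settings on density and depth moved the counts little or upward: the lowess offset on counts per base gave 23 higher and 2 lower (median 0.0619), and thinned counts 14 higher and 3 lower. Leaving out 1 library at a time gave 12 to 17 members higher, 0 to 6 lower and medians of 0.0272 to 0.0690, with 12 called in all without vehicle C. Of the 19 calls, 11 were kept without each library. Whether the letters pair the libraries remained unclear. Correlations of same-letter deviations were small (0.0318, 0.0237 and 0.0342) but each was the highest of its library, and those of other letters ran from -0.0508 to 0.0204. With a replicate block 14 rose and 2 fell. Members of at least 90% unique sequence gave 11 higher and 2 lower of 56.

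Of the other lists, with the covariate 7 assembly factors rose and 3 fell, 5 coenzyme Q genes rose and 0 fell, 0 partners were called, 2 regulators rose and 3 fell, 3 tricarboxylic acid cycle genes rose and 2 fell, 8 mitochondrial ribosomal protein genes rose and 2 fell, and 1 cytosolic one rose and 2 fell. With library size alone, 6 partners and 59 genes of the cytosolic ribosomal list rose and 0 of the latter fell.

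With the covariate the sign turned for 20 members, of which 0 were called without it. Among the members named by rule these were Atp5b (-0.00468), Cox4i1 (-0.0253), Cox6b1 (-0.118), Cox6b2 (0.383), Ndufa4 (-0.0399) and Ndufa8 (-0.00225). With library size alone, the named members that turned were Atp5g3 (0.0284) and Sdha (0.0191). With 1 library left out at a time, Cox6b1 ranged from -0.0255 to 0.0616 (below 0 without forskolin A or C or vehicle B), Atp5g3 from -0.0414 to 0.00276 (above 0 without vehicle A) and Sdhc from -0.000668 to 0.0587 (below 0 without forskolin C). In the libraries nearest in depth Cox6b1 was -0.0595 and Cox6b2 0.0965, and in thinned counts Cox6b1 was -0.00536. The cause was not tested.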

Other observations

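The ribosomal proteins, which are also short and densely covered, were looked at beside the respiratory subunits. Of 78 genes with mitochondrial ribosomal protein symbols, 20 rose and 5 fell (32.1% called, against 49.9% of all genes tested), with a median log2 fold change of 0.09 (edgeR, adjusted p under 0.05). Mrpl24 of the large mitochondrial subunit measured 27.1 ± 1.71 CPM in the vehicle group and 52.4 ± 4.72 CPM in the forskolin group (SD, n = 3 each), a log2 fold change of 0.95 with an edgeR adjusted p of 1.20e-08. Mrps36 fell from 13.1 ± 1.06 to 9.70 ± 0.806 CPM (log2 fold change -0.43, edgeR adjusted p = 0.00741). Of 85 genes with cytosolic ribosomal protein symbols, 38 rose and 1 fell (45.9% called), with a median of 0.12. Their median coverage was 1.88 counts per base. Both ribosomal lists were taken by symbol, which does not show that a product, such as that of Mrps36, is a ribosomal protein. The cytosolic list includes Rps19bp1 and pseudogenes such as Rpl34-ps1. With the library total as a covariate 1 cytosolic ribosomal protein gene rose and 2 fell, and of the mitochondrial ones 8 rose and 2 fell, with Mrps36 no longer called (adjusted p = 0.0974).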
